A study of Rattus norvegicus with 35 samples.

Results

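The 12 arrays described here, of 35 in the series, carry left ventricular RNA of male Wistar rats 1 day after surgery. In 6 of them the abdominal aorta had been ligated, which narrows the outflow and puts a pressure load on the heart so that it hypertrophies, and the other 6 had a sham operation. They are all the arrays that the labels place at day 1, and ligated was compared with sham within that day. A further 11 arrays of day 6 and 12 of day 42 served for the comparison of the days. The labels give no age of the animals, and no measure of heart weight or pressure was used here. Each array is an Illumina BeadChip with 22523 probes, of which 13793 carry a gene symbol. A probe was tested where it was detected above the negative control beads (detection p under 0.01) on at least 5 of the 12 arrays. That left 8236 probes, of which 6322 carry a symbol and stand for 6218 named genes, and 1914 carry none.

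A heart that suddenly pumps against a narrowed aorta responds within hours. Stretched muscle cells switch on immediate early genes, natriuretic peptides and proteins of the Z-disc, the anchor of the contractile filaments, while they raise the synthesis and folding of protein. Damaged and stretched cells also release chemokines and cytokines, which act on resident macrophages and fibroblasts, and the fibroblasts begin to lay down matrix. Fatty acid oxidation, the main energy source of the adult heart, is often lowered in the loaded heart.

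Values are log2 intensities after background correction and quantile normalisation, differences are log2 fold changes (ligated over sham) ± their standard error (SE) from limma with 6 arrays per group, and p-values carry the Benjamini-Hochberg adjustment for the whole set of tested probes. Where 3 log2 intensities are given for a group they are its lowest, median and highest array. In these bulk samples, fewer cells of a type and less RNA per cell cannot be told apart. On the BeadChip the ligated arrays hold positions A to F and those of sham G to L, and chip position and operation cannot be told apart either. Brightness, which is the scanner intensity at the 75th percentile of an array's probes, was 254 ± 41.3 in the ligated and 219.6 ± 19.4 in the sham arrays (SD, n = 6 each, two-sided exact permutation p = 0.104). Of all probes 36.9% ± 2.07 were detected in the ligated and 34.7% ± 0.923 in the sham arrays (SD, n = 6 each, two-sided exact permutation p = 0.0303). That p lay between 0.0519 and 0.0606 when ligated array 1, 3 or 4 or sham array 1, 3 or 6 was left out. The ventricular muscle genes Tnnt2, Tnni3, Actc1 and Myl2, which check the labelled tissue, were detected on all 12 arrays, and none of them passed the test.

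The 6 ligated arrays were far less alike than the 6 sham arrays. On the first principal component of the tested probes, which carries 49.0% of the variance, the sham arrays lay between -20.3 and -18.7. Ligated arrays 1, 3 and 4 lay at 38.1, 33.2 and 32.7, arrays 5 and 6 at 6.08 and 10.6, and array 2 at -3.77. Ligated array 2 had a median correlation across probes of 0.967 with the other ligated arrays and of 0.981 with the sham arrays. Among the genes tested, 75.9% had a larger standard deviation in the ligated arrays, the median being 0.26 in ligated and 0.17 in sham. When the other 5 ligated arrays were used to choose genes that passed and differed by 2-fold or more, array 2 had a median difference from the sham mean of 0.41 over the 195 genes higher in ligated. Ligated arrays 1, 3 and 4, each held out in the same way, had median differences between 1.93 and 1.95, and arrays 5 and 6 of 0.91 and 0.92. The same sham arrays served to choose these genes and to take the differences, which favours the sign of the choice, so that only the sizes are set side by side. Brightness was 308, 266 and 293 in ligated arrays 1, 3 and 4. In ligated arrays 2, 5 and 6 it was 225, 223 and 208, and the sham arrays lay between 199 and 240. What sets the ligated arrays apart from each other, and the part of brightness in it, was not tested. The overall counts are also given without array 2.

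**Figure D1:**
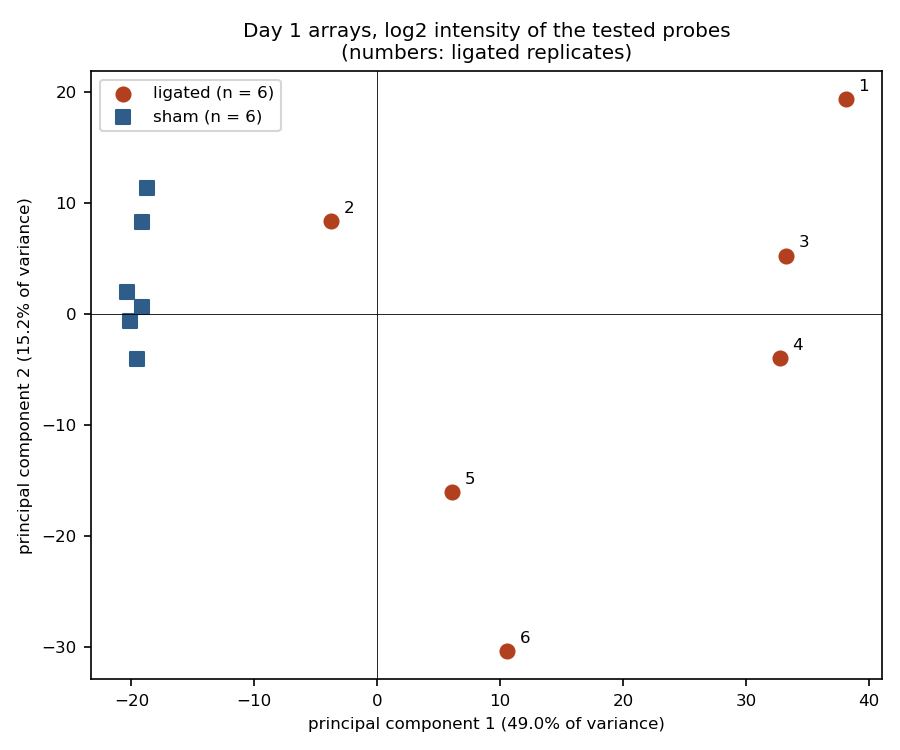
The first and second principal components of the 12 arrays of day 1, from the log2 intensities of the tested probes. The 6 sham arrays sit together between -20.3 and -18.7 on the first component, ligated arrays 1, 3 and 4 lie at 32.7 to 38.1, and ligated array 2 lies nearest to the sham arrays at -3.77.

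Of the 6218 genes tested, 803 rose and 1008 fell in ligated ventricles, which is 12.9% and 16.2% of them. The median log2 fold change was 0.60 for the genes that rose, -0.51 for those that fell and -0.03 over all genes tested. A change of 2-fold or more was found for 142 genes that rose (2.28%) and 60 that fell (0.965%). The groups did not overlap in 636 genes (10.2%), with all ligated arrays above all sham arrays in 286 (4.6%) and below them in 350 (5.63%). Without ligated array 2, 1028 genes rose (16.5%) and 1217 fell (19.6%), and without ligated array 4, 552 rose and 659 fell. The split depended on the scaling. Under median scaling 1295 genes rose (20.8%) and 264 fell (4.25%), with the median over all genes at 0.20, and with array brightness as a covariate 408 rose and 493 fell. A rise or a fall is thus relative to the bulk of genes on quantile-normalised arrays. The counts of single lists moved with these settings too, and for some lists the count under one or both is given beside the other. A list count under median scaling is to be read against the 20.8% and 4.25% of all genes in that setting.

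The genes were grouped into 39 lists by pathway, and a list is described by the number of its tested members that rose and fell. Shares of members that rose well above the background of 12.9% were found for collagens and their processing (53.3%), tubulins (50%), endoplasmic reticulum chaperones (49%), matricellular proteins (44.4%) and cytosolic ribosomal proteins (42.6%). Shares that fell well above the background of 16.2% were found for the tricarboxylic acid (TCA) cycle and amino acid breakdown (66.7%), the respiratory chain (42.6%), potassium channels (41.2%) and fatty acid oxidation (38.2%). These shares are descriptions, and no test of a list was made. Members that were detected too rarely to be tested are in none of the counts, and a gene may stand in several lists. Of the genes that changed, 507 that rose and 753 that fell are in no list.

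**Figure D2:**
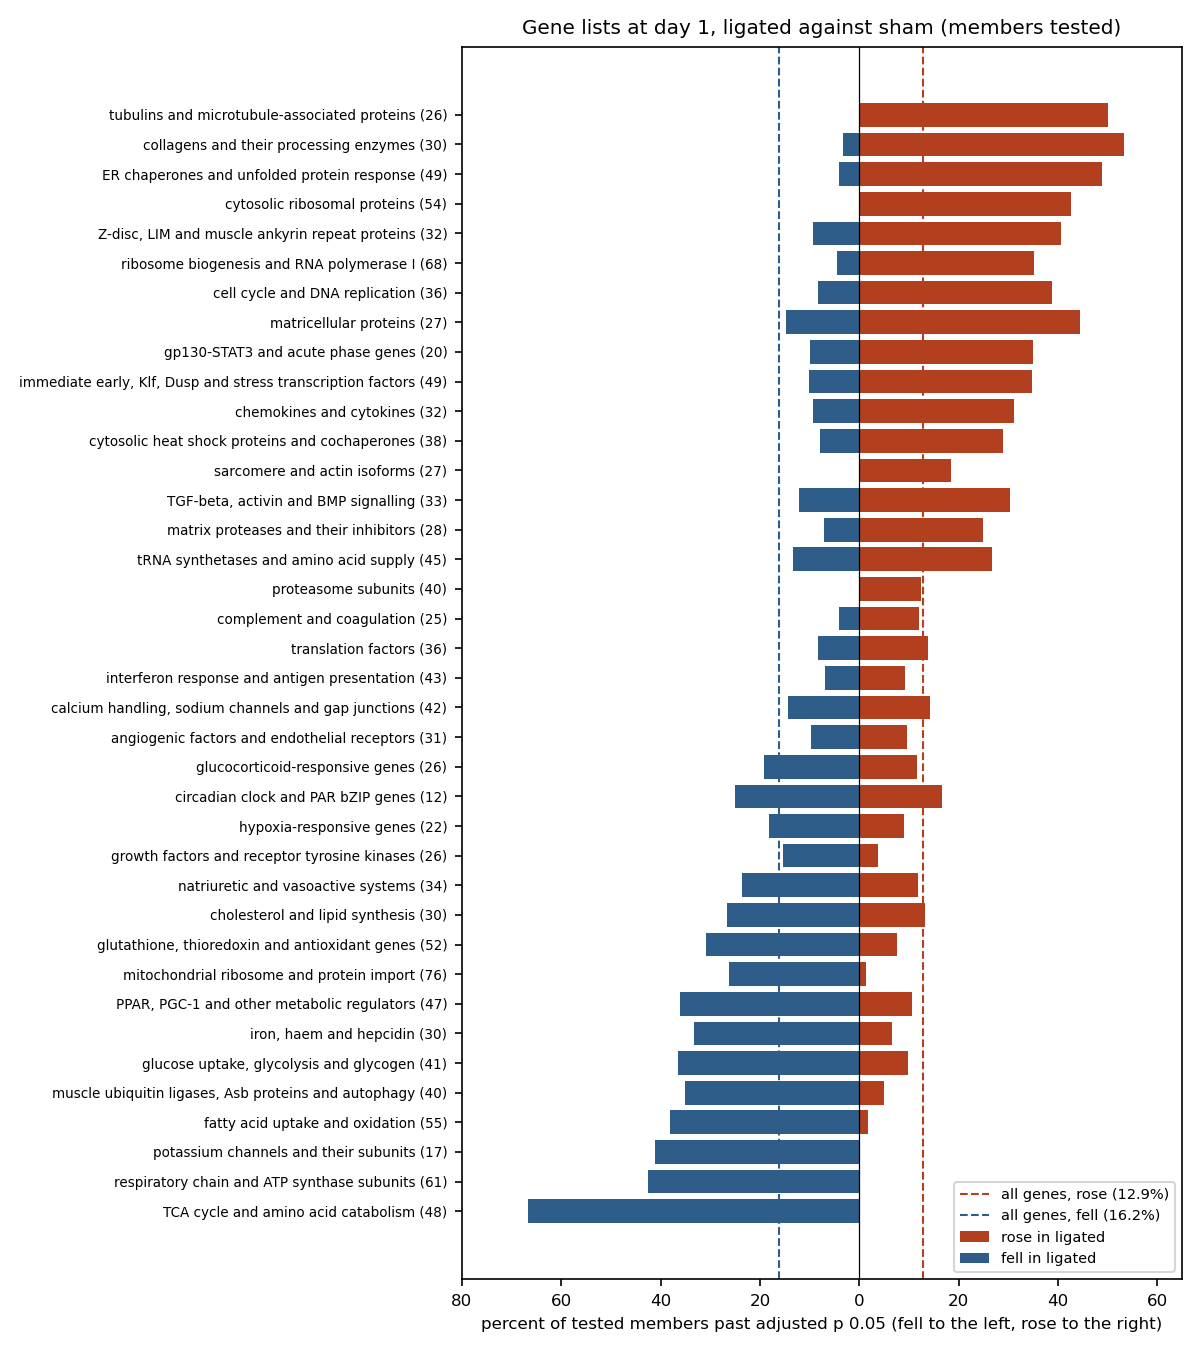
Percent of the tested members of each gene list shown that rose (right) and fell (left) in ligated against sham ventricles at day 1. The dashed lines mark the 12.9% of all tested genes that rose and the 16.2% that fell, and the longest bar is the 66.7% of the TCA cycle list that fell.

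Secreted signals of inflammation were among the largest rises. Of 32 tested chemokines and cytokines 10 rose and 3 fell (median 0.21), and of 20 tested genes of the gp130-STAT3 and acute phase list 7 rose and 2 fell (median 0.38). Spp1, which encodes osteopontin, a matrix-bound cytokine, had log2 intensities of 7.03, 12.50 and 13.81 in ligated arrays and 5.38, 6.28 and 8.14 in sham arrays. It was detected on 6 of 6 arrays after ligation and 3 of 6 after sham, and the highest sham array lay above ligated array 6, the lowest of its group. Across all 12 arrays the difference was 4.83 ± 1.07 (adjusted p = 0.00609). Reg3b, a lectin secreted in acute inflammation, had 10.66, 11.76 and 13.45 in ligated and 6.13, 8.23 and 9.40 in sham arrays, with no overlap (4.10 ± 0.62, adjusted p = 0.000944). Its relative Reg3g had 5.49, 7.67 and 10.41 in ligated and 4.60, 5.01 and 6.61 in sham arrays, where 4 of 6 ligated arrays were above every sham array (2.40 ± 0.68, adjusted p = 0.0196). Hamp encodes hepcidin, the hormone that blocks iron export from cells. Its intensities were 11.10, 12.72 and 13.64 in ligated and 8.83, 9.95 and 11.16 in sham arrays (2.67 ± 0.45, adjusted p = 0.0017), and only ligated array 2 lay within the sham range.

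Among the chemokines, Ccl2, which draws monocytes from the blood, had 6.78, 9.67 and 10.43 in ligated and 5.63, 6.12 and 6.78 in sham arrays, again without overlap (2.89 ± 0.50, adjusted p = 0.002). Ccl7 and Ccl12, which act on the same receptor family, were detected on 5 ligated arrays each and on none of the sham arrays. They were at least 4.85-fold higher (adjusted p = 0.00218) and at least 1.96-fold higher (adjusted p = 0.00226) in ligated arrays. Such a bound sets each sham array to no less than the lowest signal detected on it. Cxcl1, a neutrophil-attracting chemokine, rose by 1.30 ± 0.26 and Csf1, the growth factor of macrophages, by 0.94 ± 0.21. Tnfrsf12a, the receptor of the cytokine TWEAK, rose by 1.98 ± 0.27. In the opposite direction went Ccl5, a chemokine for T cells, at -0.95 ± 0.24 (adjusted p = 0.0108). For each of Ccl2, Ccl7, Ccl12, Cxcl1, Csf1 and Tnfrsf12a the lowest ligated array was array 2 and the next array 5.

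In the gp130-STAT3 list, Il6st, which encodes gp130, the ligands Il6, Lif and Osm, and the inhibitor Socs3 were detected too rarely to be tested. The list's kinase Jak2 was at 0.82 ± 0.22 (adjusted p = 0.0148) and Jak1 at -0.41 ± 0.10 (adjusted p = 0.00834), so that the pair moved in opposite directions. Socs2, a feedback inhibitor of such kinases, had 8.42, 8.70 and 9.46 in ligated and 9.49, 9.55 and 9.74 in sham arrays and fell by 0.77 on the log2 scale (SE 0.144, adjusted p = 0.00275). Orm1, an acute phase glycoprotein, rose by 0.74 ± 0.20 and the metal-binding protein Mt1 by 1.08 ± 0.24. Lcn2, another acute phase gene, was at 1.49 ± 1.03 (adjusted p = 0.294), with single ligated arrays between 5.71 and 12.69. Part of the macrophage marker genes rose beside these cytokines. Of 17 tested markers 5 rose and 0 fell (median 0.32), 2 and 0 with the brightness covariate, and the groups overlapped in each of them. Their summed level lay between 10371 and 26326 intensity units in ligated and between 6508 and 13109.9 in sham arrays. Adgre1, Fcgr2b and Cx3cr1 were detected on none of the 12 arrays. The part of macrophage RNA in the cytokine values was not tested. The calls of this and the foregoing paragraphs were lost under median scaling for Jak1, with array brightness as a covariate for Reg3g, Ccl5 and Jak2, without the detection filter for Reg3g, and with a spread shared by all 6 groups for Jak1 and Mt1.

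Reg3b and Hamp are known targets of STAT3, so their promoters are shown. The palindrome TTCNNNGAA, which reads the same on both strands and which STAT proteins bind, was searched in windows of 250 bases before to 50 bases after each gene's start (RefSeq, build GRCr8). It was present in 8.68% of all 27457 promoters and 6.78% of the 5209 promoters of tested genes. Of the list's 20 tested genes 14 had a promoter sequence, and 2 of those held a match, namely Reg3b (chr4:112419526-112419825 on the plus strand) and Hamp (chr1:95300222-95300521 on the minus strand). The match begins 129 bases upstream of the start of Reg3b and 117 bases upstream of that of Hamp and is in capitals.
Reg3b: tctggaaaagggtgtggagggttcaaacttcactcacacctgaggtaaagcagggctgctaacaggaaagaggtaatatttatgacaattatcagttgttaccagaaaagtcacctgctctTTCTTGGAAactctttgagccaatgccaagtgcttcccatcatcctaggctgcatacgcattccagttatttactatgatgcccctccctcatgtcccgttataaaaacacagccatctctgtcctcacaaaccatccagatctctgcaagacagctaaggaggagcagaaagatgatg
Hamp: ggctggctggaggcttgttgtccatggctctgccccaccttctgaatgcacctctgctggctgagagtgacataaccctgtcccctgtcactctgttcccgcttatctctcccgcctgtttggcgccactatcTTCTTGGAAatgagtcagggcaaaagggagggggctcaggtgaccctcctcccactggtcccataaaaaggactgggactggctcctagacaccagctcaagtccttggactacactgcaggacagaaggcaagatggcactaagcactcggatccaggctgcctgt

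**Figure D3:**
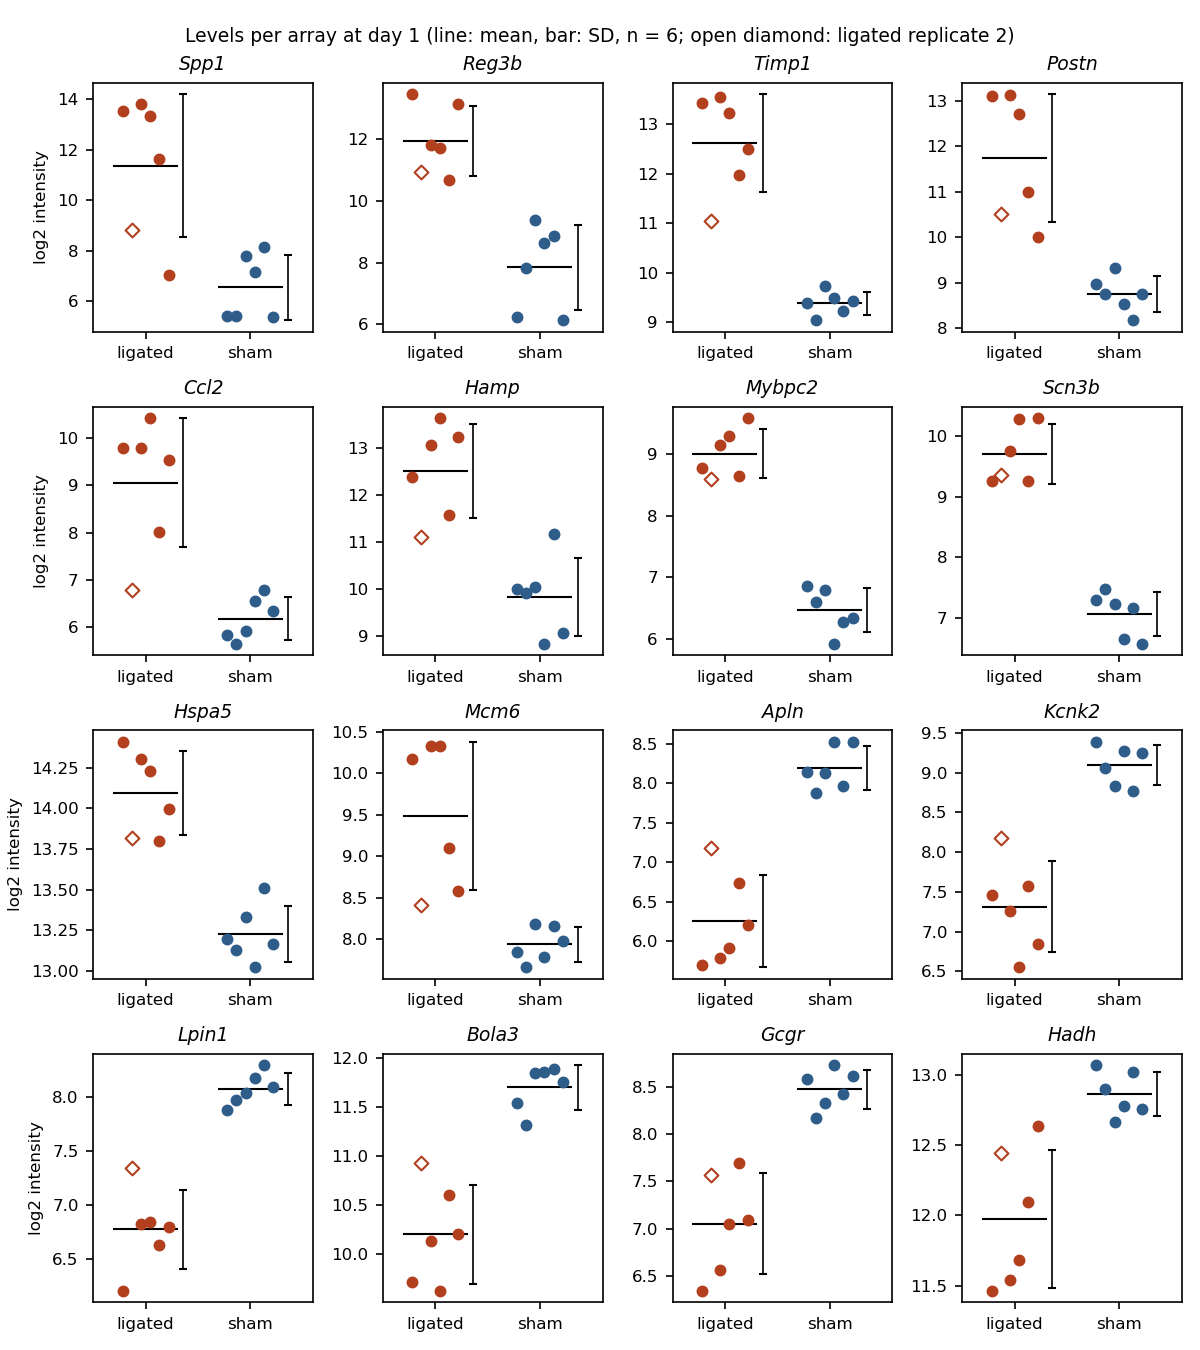
Log2 intensity of 16 genes on each ligated (left) and sham (right) array of day 1, with the mean as a line and the SD as a bar (n = 6 each). The open diamond is ligated array 2, which is the lowest ligated array for Timp1, Ccl2, Hamp, Mybpc2 and Mcm6 and the highest for Apln, Kcnk2, Lpin1 and Bola3.

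The matrix around the cells was another large group of rises. Of 27 tested matricellular proteins, which signal from the matrix rather than hold it together, 12 rose and 4 fell (median 0.27). Postn, periostin of activated fibroblasts, had 10.01, 11.86 and 13.13 in ligated and 8.18, 8.75 and 9.34 in sham arrays (2.99 ± 0.51, adjusted p = 0.0017). Thbs4, a thrombospondin, had 8.21, 9.03 and 11.06 in ligated and 6.16, 6.45 and 7.94 in sham arrays (2.75 ± 0.51, adjusted p = 0.00255). In neither gene did the groups overlap, and ligated array 6 was the lowest of its group for both. Ccn2, connective tissue growth factor, rose by 1.42 ± 0.29, its paralog Ccn1 by 1.19 ± 0.22 and the proteoglycans Vcan by 1.38 ± 0.29 and Bgn by 0.66 ± 0.12. Another paralog, Ccn3, fell by 0.82 (SE 0.174, adjusted p = 0.00484), and the elastic fibre protein Efemp1 fell by 0.84 (SE 0.169), detected on 1 of 6 arrays after ligation and 6 of 6 after sham.

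Among collagens and their processing enzymes, 16 of 30 tested genes rose and 1, Col15a1, fell (median 0.39), with 18 and 0 under median scaling. Many of those that rose make or modify collagen rather than being fibrillar collagen. The enzymes that hydroxylate collagen chains, Plod2 (1.45 ± 0.29) and P4ha1 (0.93 ± 0.21), the crosslinking oxidase Loxl2 (1.13 ± 0.19), the collagen chaperone Fkbp10 (1.06 ± 0.20) and Pcolce (1.22 ± 0.17), which enhances the trimming of procollagen, had no overlap between the groups. Pcolce, as an example, had 8.04, 8.52 and 8.91 in ligated and 6.84, 7.30 and 7.84 in sham arrays (adjusted p = 0.000604). Of the chains themselves, the short-chain collagen Col8a1 had 10.89, 11.41 and 12.51 in ligated and 9.01, 9.90 and 10.42 in sham arrays (1.68 ± 0.28, adjusted p = 0.0016), and Col18a1 of basement membranes rose by 1.03 ± 0.20. The main fibrillar chains did not pass, with Col1a1 at 0.51 ± 0.25 (adjusted p = 0.131, and 0.0194 without ligated array 6) and Col3a1 at -0.05 ± 0.25 (adjusted p = 0.903), which had a log2 fold change of 0.17 under median scaling.

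Of 33 tested genes of transforming growth factor beta (TGF-beta), activin and BMP signalling 10 rose and 4 fell (median 0.13). Among the ligands, Tgfb2 had 9.79, 10.51 and 11.69 in ligated and 8.26, 8.47 and 8.72 in sham arrays (2.12 ± 0.27, adjusted p = 0.000451), with no overlap. Its paralogs were Tgfb1 at 0.53 ± 0.17 (adjusted p = 0.0352) and Tgfb3 at -0.35 ± 0.17 (adjusted p = 0.129, and 0.0426 without ligated array 5). The call of Tgfb1 was lost without ligated array 3, 4 or 5 or sham array 1, 3, 4 or 6 (adjusted p between 0.0562 and 0.0834). Of the list's other proteins outside the cell, Ltbp2, a microfibril protein, had 7.05, 9.11 and 10.08 in ligated and 5.13, 5.67 and 6.03 in sham arrays (3.12 ± 0.50, adjusted p = 0.00136) and was detected on 6 of 6 arrays after ligation and 1 of 6 after sham. Its paralog Ltbp1, which stores latent TGF-beta, fell by 0.73 (SE 0.152, adjusted p = 0.00455). The activin antagonists both rose, Fstl3 by 2.06 ± 0.27 and Fst, detected on 6 of 6 arrays after ligation and 0 of 6 after sham, by at least 2-fold (adjusted p = 0.000795). The ligand Bmp2 rose by 0.72 ± 0.16 and the receptor Bmpr2 by 0.60 ± 0.13, while the activin receptor Acvr2b was at -0.72 ± 0.17 (adjusted p = 0.00705).

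Matrix proteases and their inhibitors had 7 rises and 2 falls among 28 tested genes (median 0.18), and 11 and 0 under median scaling. Timp1, an inhibitor of matrix metalloproteinases, had 11.05, 12.87 and 13.55 in ligated and 9.04, 9.41 and 9.73 in sham arrays, a 9.44-fold rise (3.24 ± 0.35, adjusted p = 0.000247). All 6 ligated arrays lay above all sham arrays, with array 2 lowest. Its paralog Timp2 was at -0.70 ± 0.19 (adjusted p = 0.0151). Adamts1, a protease that cleaves proteoglycans such as versican, rose by 1.02 ± 0.22, and the metalloproteinase Mmp23, detected on 6 of 6 arrays after ligation and 0 of 6 after sham, was at least 1.29-fold higher in ligated arrays (adjusted p = 0.00126). The fibroblast markers did not rise as a group. Of 15 tested, 1 rose, which was S100a4 (1.99 ± 0.35), and 2 fell, which were Fbln1 (-0.63 ± 0.14) and Dpt (-0.57 ± 0.15). The shares, 6.67% and 13.3%, lie below the 12.9% and 16.2% of all genes. The calls in these matrix paragraphs were lost under median scaling for Timp2, Ltbp1 and Fbln1, with array brightness as a covariate for Timp2, Tgfb1 and Dpt, without the detection filter for Tgfb1, with a spread shared by all 6 groups for Timp2 and Tgfb1, and with a replicate block for Tgfb1.

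The muscle cell's own stress genes rose in part. Nppa, the atrial natriuretic peptide, had 12.97, 15.05 and 15.61 in ligated and 12.78, 13.30 and 14.05 in sham arrays (1.39 ± 0.39, adjusted p = 0.0189), and 5 of 6 ligated arrays lay above every sham array. Nppb, the B-type peptide, was at 0.34 ± 0.14 (adjusted p = 0.0798, and 0.0424 without sham array 3). Corin, the protease that activates the atrial peptide, had 7.99, 8.49 and 8.996 in ligated and 9.06, 9.33 and 9.74 in sham arrays and fell by 0.89 (SE 0.16, adjusted p = 0.00232) without overlap, and Npr2, a natriuretic peptide receptor, fell by 0.57 (SE 0.129). The myosin heavy chains Myh6 (-0.14 ± 0.14) and Myh7 (0.36 ± 0.18), skeletal actin Acta1 (0.55 ± 0.20, adjusted p = 0.0535, and 0.00526 without ligated array 6) and the calcium pump Atp2a2 (0.05 ± 0.08) did not pass. Myh6 was at 0.04 under median scaling, and Atp2a2 at -0.05 on the series matrix values. Ankrd1, Myh6, Myh7 and Atp2a2 lie near the upper end of the scanner, where differences can be compressed, and the highest ligated arrays of Nppa and Acta1, at log2 intensities of 15.61 and 15.34, reach that range as well. Of 27 tested sarcomere genes 5 rose and 0 fell (median -0.02, and 10 and 0 under median scaling). Mybpc2, the fast skeletal form of myosin binding protein C, had 8.60, 8.96 and 9.59 in ligated and 5.92, 6.47 and 6.85 in sham arrays, a 5.84-fold rise (2.55 ± 0.20, adjusted p = 2.6e-05), whereas the cardiac form Mybpc3 was at -0.44 ± 0.23 (adjusted p = 0.16). Tropomyosin Tpm3 rose by 1.05 ± 0.20.

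Z-disc, LIM domain and muscle ankyrin repeat proteins, which sense stretch at the anchor of the filaments, had 13 rises and 3 falls among 32 tested genes (median 0.30), and 19 and 1 under median scaling. Ankrd23, a muscle ankyrin repeat protein, had 8.14, 8.67 and 9.62 in ligated and 5.35, 6.22 and 7.08 in sham arrays (2.58 ± 0.30, adjusted p = 0.000352). Its paralog Ankrd1 rose by 0.30 ± 0.09 (adjusted p = 0.0205). Pdlim5, which ties kinases to the Z-disc, had 9.92, 11.02 and 11.37 in ligated and 8.46, 8.71 and 8.88 in sham arrays (2.05 ± 0.23, adjusted p = 0.000247). Enah, an actin polymerisation factor, had 10.24, 10.72 and 11.001 in ligated and 9.02, 9.19 and 9.43 in sham arrays and was among the most even changes over arrays (1.46 ± 0.13, adjusted p = 4.42e-05). The filamins Flnc (1.68 ± 0.23) and Flna (0.73 ± 0.14), the LIM proteins Csrp3 (0.85 ± 0.11) and Fhl1 (1.58 ± 0.27) rose as well, while Fhl2, a LIM protein paralogous to Fhl1, fell by 0.96 (SE 0.205, adjusted p = 0.00518). Each of these 5 genes had no overlap between the groups.

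Tubulins and microtubule-associated proteins had 13 rises and 0 falls among 26 tested genes (median 0.37). Tubb6, a beta tubulin, had 8.39, 10.21 and 10.76 in ligated and 7.70, 8.24 and 8.33 in sham arrays (1.80 ± 0.33, adjusted p = 0.00265). Tuba1b (1.17 ± 0.18), Tubb2a (1.12 ± 0.20), Tubb4b (0.82 ± 0.14), Tuba1a (0.88 ± 0.20) and Tuba4a (0.79 ± 0.13) rose too. Tubulin genes are close copies of each other, and a probe of one may bind RNA of another, so the single members are uncertain. Map1b, a microtubule-binding protein, rose by 1.02 ± 0.19 on the probe that stands for it and by 1.43 on its second probe, and Ckap4, which links the endoplasmic reticulum to microtubules, by 1.35 ± 0.16.

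Genes that tie cells to each other and to the matrix also changed. S100a4, a calcium-binding protein of motile cells, had 10.30, 11.61 and 12.33 in ligated and 8.997, 9.42 and 9.82 in sham arrays. The integrin chain Itga5 (0.66 ± 0.12), which binds fibronectin, the laminin chain Lamc1 (0.78 ± 0.14) and the desmosomal protein Pkp2 (0.50 ± 0.09) rose without overlap. Sgca, a sarcoglycan that ties the muscle membrane to the matrix, fell by 1.07 (SE 0.19, adjusted p = 0.00229). The calls in these muscle and adhesion paragraphs were lost under median scaling for Npr2, with array brightness as a covariate for Nppa, without the detection filter for Nppa, and on the series matrix values for Ankrd1.

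Many genes of the machinery that folds secreted protein rose. Of 49 tested genes of the endoplasmic reticulum (ER) chaperone and unfolded protein response list 24 rose and 2 fell (median 0.38), with 29 and 0 under median scaling, 13 and 0 with the brightness covariate, and 31 and 3 without ligated array 2. Hspa5, the main ER chaperone BiP, had 13.80, 14.11 and 14.41 in ligated and 13.02, 13.18 and 13.51 in sham arrays (0.87 ± 0.13, adjusted p = 0.000853). Hsp90b1, the ER form of Hsp90, had 11.95, 12.35 and 12.92 in ligated and 11.14, 11.33 and 11.74 in sham arrays (1.01 ± 0.16, adjusted p = 0.00116). Creld2, a disulfide isomerase of the ER, had 8.71, 9.27 and 10.56 in ligated and 7.55, 7.97 and 8.42 in sham arrays (1.44 ± 0.29, adjusted p = 0.00353), and Dnajc3, a cochaperone of BiP, had 10.52, 11.27 and 12.03 in ligated and 9.96, 10.11 and 10.47 in sham arrays (1.10 ± 0.22, adjusted p = 0.00366). In these 4 genes all ligated arrays lay above all sham arrays, with array 2 or 5 lowest and array 1 highest. Pdia6, another disulfide isomerase, rose by 0.72 ± 0.14, Manf, a secreted ER stress factor, by 0.71 ± 0.15 and Sec61b, part of the channel into the ER, by 0.84 ± 0.18.

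The ER stress element, which the factors ATF6 and XBP1 bind, was searched on both strands of the same promoter windows as the letters CCAAT and CCACG with 9 bases between them. It was present in 21 of 27457 promoters (0.0765%) and in 11 of 5209 promoters of tested genes (0.211%). Of 41 promoters of the ER list's tested genes 7 held it. Among these 7 genes, Hspa5, Hsp90b1, Creld2, Dnajc3 and Calr rose, and Canx (0.60 ± 0.25, adjusted p = 0.0876) and Xbp1 (0.26 ± 0.10, adjusted p = 0.0718) did not pass. Without ligated array 5 both were past the threshold (adjusted p = 0.0484 and 0.0455), as was Canx without ligated array 6 (0.0289) and Xbp1 without sham array 5 (0.0472). Calr (0.61 ± 0.15, adjusted p = 0.0101), Canx and Xbp1 were picked for this match after their values were seen. A match describes these letters in the window and is not a measurement of binding. The 5 promoters of genes that rose are printed with the matches in capitals. The first match begins 43 bases upstream of the start of Hspa5 (chr3:38452766-38453065 on the plus strand), 176 upstream of Hsp90b1 (chr7:23012244-23012543 on the minus strand), which holds 2 matches, 145 upstream of Creld2 (chr7:121789134-121789433 on the plus strand), 133 upstream of Dnajc3 (chr15:102432417-102432716 on the plus strand) and 232 upstream of Calr (chr19:40213117-40213416 on the plus strand).
Hspa5: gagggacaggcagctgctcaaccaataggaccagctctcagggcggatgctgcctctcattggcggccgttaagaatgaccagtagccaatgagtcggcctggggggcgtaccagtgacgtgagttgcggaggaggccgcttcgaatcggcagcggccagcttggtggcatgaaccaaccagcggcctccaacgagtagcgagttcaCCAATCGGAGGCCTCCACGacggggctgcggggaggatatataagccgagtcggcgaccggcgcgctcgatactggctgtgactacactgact
Hsp90b1: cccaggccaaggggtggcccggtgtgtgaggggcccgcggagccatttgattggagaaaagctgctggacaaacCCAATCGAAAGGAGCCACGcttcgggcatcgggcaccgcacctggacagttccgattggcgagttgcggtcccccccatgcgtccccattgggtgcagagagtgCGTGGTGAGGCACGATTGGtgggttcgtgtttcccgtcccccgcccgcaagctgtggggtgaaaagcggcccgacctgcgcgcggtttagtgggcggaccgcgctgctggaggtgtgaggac
Creld2: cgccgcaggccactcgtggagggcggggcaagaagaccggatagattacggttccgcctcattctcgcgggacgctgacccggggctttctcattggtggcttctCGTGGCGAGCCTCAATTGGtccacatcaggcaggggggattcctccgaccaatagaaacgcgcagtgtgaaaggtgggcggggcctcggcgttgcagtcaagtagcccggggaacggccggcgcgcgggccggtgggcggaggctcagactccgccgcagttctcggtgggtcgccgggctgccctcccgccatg
Dnajc3: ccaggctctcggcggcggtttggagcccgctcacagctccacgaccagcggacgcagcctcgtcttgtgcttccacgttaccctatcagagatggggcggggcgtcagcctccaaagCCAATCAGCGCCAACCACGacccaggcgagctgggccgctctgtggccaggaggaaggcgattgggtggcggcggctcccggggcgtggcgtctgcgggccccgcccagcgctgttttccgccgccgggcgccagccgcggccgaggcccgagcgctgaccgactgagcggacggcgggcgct
Calr: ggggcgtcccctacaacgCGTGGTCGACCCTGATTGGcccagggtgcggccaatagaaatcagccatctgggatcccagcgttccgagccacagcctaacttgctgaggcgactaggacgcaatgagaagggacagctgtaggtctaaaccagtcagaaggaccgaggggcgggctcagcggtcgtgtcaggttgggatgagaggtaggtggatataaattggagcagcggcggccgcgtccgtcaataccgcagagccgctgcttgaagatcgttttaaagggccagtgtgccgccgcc

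Heat shock proteins and cochaperones of the cytosol had 11 rises and 3 falls among 38 tested genes (median 0.20), and 5 and 2 with the brightness covariate. Hspb1, a small heat shock protein, had 12.71, 14.04 and 14.40 in ligated and 12.03, 12.25 and 12.42 in sham arrays (1.53 ± 0.25, adjusted p = 0.00136), and Cct3, a subunit of the chaperonin that folds actin and tubulin, rose by 0.50 ± 0.11. Dnajb6, a cochaperone at the Z-disc, fell by 0.51 (SE 0.0953, adjusted p = 0.00275). The heat shock element was searched on both strands as GAA, TTC and GAA with 2 bases between neighbouring triplets. It was present in 5 of the 32 promoters of this list's tested genes, 1 of the 10 of genes that rose and 4 of the 22 others. This compares with 0.736% of all promoters and 0.576% of those of tested genes. The windows of Hspd1 and Hspe1, both among the 4, overlap on opposite strands and share the matched bases, so the same bases count for both.

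A part of the genes that build ribosomes rose as well. Ribosome biogenesis and RNA polymerase I had 24 rises and 3 falls among 68 tested genes (median 0.27), with 36 and 1 under median scaling and 9 and 2 with the brightness covariate. Myc, the transcription factor that drives this programme, had 8.01, 9.36 and 9.82 in ligated and 6.66, 7.26 and 7.73 in sham arrays (1.85 ± 0.29, adjusted p = 0.00123). Sdad1 (1.20 ± 0.19), Mrto4 (0.92 ± 0.19) and Nop58 (0.76 ± 0.16), which act in the maturation of ribosomal subunits or RNA, rose without overlap, and Nhp2 of the snoRNP complex rose by 0.98 ± 0.19. Polr1a, the largest subunit of RNA polymerase I, fell by 0.76 (SE 0.13, adjusted p = 0.00182). Among 54 tested cytosolic ribosomal proteins 23 rose and 0 fell (median 0.26), and 8 and 0 with the brightness covariate, for example Rps12 (0.70 ± 0.11), Rps18 (0.53 ± 0.10), Rpl23 (0.59 ± 0.12) and Rpl39 (0.56 ± 0.11). Ribosomal proteins have many processed copies in the genome that a probe may also bind. Translation factors counted 5 rises and 3 falls among 36 (median 0.21), a share of rises of 13.9% against 12.9% of all genes, with the release factor Etf1 at 0.63 ± 0.11 and the helicase Eif4a1 at 0.65 ± 0.14. For the translation factors the count under median scaling was 13 and 0, and for the 40 tested proteasome subunits it was 10 and 0 against 5 and 0, the 5 being 12.5% of them. Under median scaling 20.8% of all genes rose and 4.25% fell.

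Amino acid supply had 12 rises and 6 falls among 45 tested tRNA synthetases, transporters and enzymes (median 0.14). The share of rises was 26.7%, against 12.9% of all genes, and that of falls 13.3%, below the 16.2% of all genes. The counts were 18 and 2 under median scaling, and 4 and 5 with the brightness covariate. Phgdh, the first enzyme of serine synthesis, was detected on 6 of 6 arrays after ligation and 0 of 6 after sham and was at least 1.45-fold higher in ligated arrays (adjusted p = 0.00185). The glutamine transporter Slc1a5 rose by 1.54 ± 0.32 and the taurine transporter Slc6a6 by 0.90 ± 0.20. The transaminases fell, Gpt by 1.06 (SE 0.207) and Got1 by 0.78 (SE 0.148), as did the glutamine tRNA synthetase Qars1 by 0.62 (SE 0.103). The muscle ubiquitin ligase and autophagy list had 2 rises and 14 falls among 40 tested genes (median -0.26), and 3 and 5 under median scaling. Asb10, a substrate receptor of cullin ligases, had 6.18, 6.47 and 7.79 in ligated and 7.98, 8.29 and 8.43 in sham arrays (-1.42 ± 0.27, adjusted p = 0.00267). Its relatives Asb11 (-0.94 ± 0.19), Asb14 (-0.77 ± 0.14) and Asb18 (-1.13 ± 0.31), the adaptor Klhl38 (-1.12 ± 0.20), the atrophy ligase Trim63 (-0.40 ± 0.11) and the autophagosome protein Map1lc3b (-0.53 ± 0.12) also fell. The calls in the paragraphs on protein synthesis and turnover were lost under median scaling for Dnajb6, Qars1, Trim63 and Map1lc3b, with array brightness as a covariate for Calr, Asb18 and Trim63, and with a spread shared by all 6 groups for Trim63.

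Immediate early and stress transcription factors had 17 rises and 5 falls among 49 tested genes (median 0.21), and 9 and 3 with the brightness covariate. Sox4, a developmental transcription factor, had 8.81, 9.03 and 9.68 in ligated and 7.53, 8.04 and 8.18 in sham arrays (1.19 ± 0.16, adjusted p = 0.000654), with arrays 5 and 6 highest. Fos, a subunit of the factor AP-1, was detected on 5 of 6 arrays after ligation and 0 of 6 after sham and was at least 1.65-fold higher in ligated arrays (adjusted p = 0.00244), and its partner Junb rose by 1.24 ± 0.27. Dusp8, a phosphatase of stress kinases, rose by 0.90 ± 0.15. Klf15, a repressor of hypertrophic genes and driver of lipid and amino acid use, fell by 0.99 (SE 0.166, adjusted p = 0.0016), with all ligated arrays below all sham arrays. Among 12 tested genes of the clock list 2 rose, which were the repressor Nfil3 (1.06 ± 0.16) and Timeless (1.24 ± 0.28). In the same list 3 fell, which were Usp2, Bhlhe40 (-0.58 ± 0.16, adjusted p = 0.0153) and the nuclear receptor Nr1d1 (-0.66 ± 0.22, adjusted p = 0.0357). The rises and falls are 16.7% and 25% of the clock list, against 12.9% and 16.2% of all genes. Under median scaling 4 genes of the clock list rose and 0 fell. The hour of sampling was not used here, and its part in the clock genes was not tested. The call of Nr1d1 was lost without ligated array 1, 4 or 6 or sham array 1, 4 or 6 (adjusted p between 0.0604 and 0.0826), and calls were lost under median scaling for Nr1d1 and Bhlhe40, with array brightness as a covariate for Nr1d1, without the detection filter for Nr1d1, with a spread shared by all 6 groups for Nr1d1, and with a replicate block for Nr1d1.

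Of the 39 lists, cell cycle and DNA replication genes had the widest range of medians over the ligated arrays. Of 36 tested genes 14 rose and 3 fell (median 0.58), 21 and 3 without ligated array 2, and 3 and 2 with the brightness covariate. The median over these 36 genes of the difference from the sham mean was 1.10, 0.03, 1.07, 0.79, 0.29 and 0.13 in ligated arrays 1 to 6, while the sham arrays lay between -0.07 and 0.09. Ligated arrays 1, 3 and 4 thus stood apart from arrays 2 and 6, which were close to the sham arrays. Mcm6, a subunit of the replicative helicase, had 8.42, 9.63 and 10.33 in ligated and 7.66, 7.91 and 8.19 in sham arrays (1.55 ± 0.32, adjusted p = 0.00455). Mcm2 of the same helicase (1.06 ± 0.24), the clamp loader subunit Rfc4 (0.83 ± 0.19) and DNA ligase Lig1 (0.59 ± 0.14) rose too. Rbl2, a pocket protein that restrains cell cycle entry, fell by 0.76 (SE 0.101, adjusted p = 0.00055), and so did the polymerase alpha subunit Pola2 (0.74 on the log2 scale, SE 0.167). The call of this paragraph was lost with array brightness as a covariate for Mcm2.

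The order of the ligated arrays was not the same in all lists. In the gp130-STAT3 and acute phase list the medians were 0.48, -0.05, 0.36, 0.36, 0.23 and 0.94 in ligated arrays 1 to 6, so that array 6 was the highest, and the sham arrays lay between -0.15 and 0.26. For the TCA cycle list they were -0.63, -0.17, -0.58, -0.56, -0.29 and -0.30 in ligated arrays, against a sham range between -0.05 and 0.03. For the Z-disc list they were 0.25, 0.20, 0.26, 0.39, 0.30 and 0.43 in ligated arrays, all above the sham range between -0.09 and 0.06, and array 2 lay within 0.1 of arrays 1, 3 and 5.

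**Figure D4:**
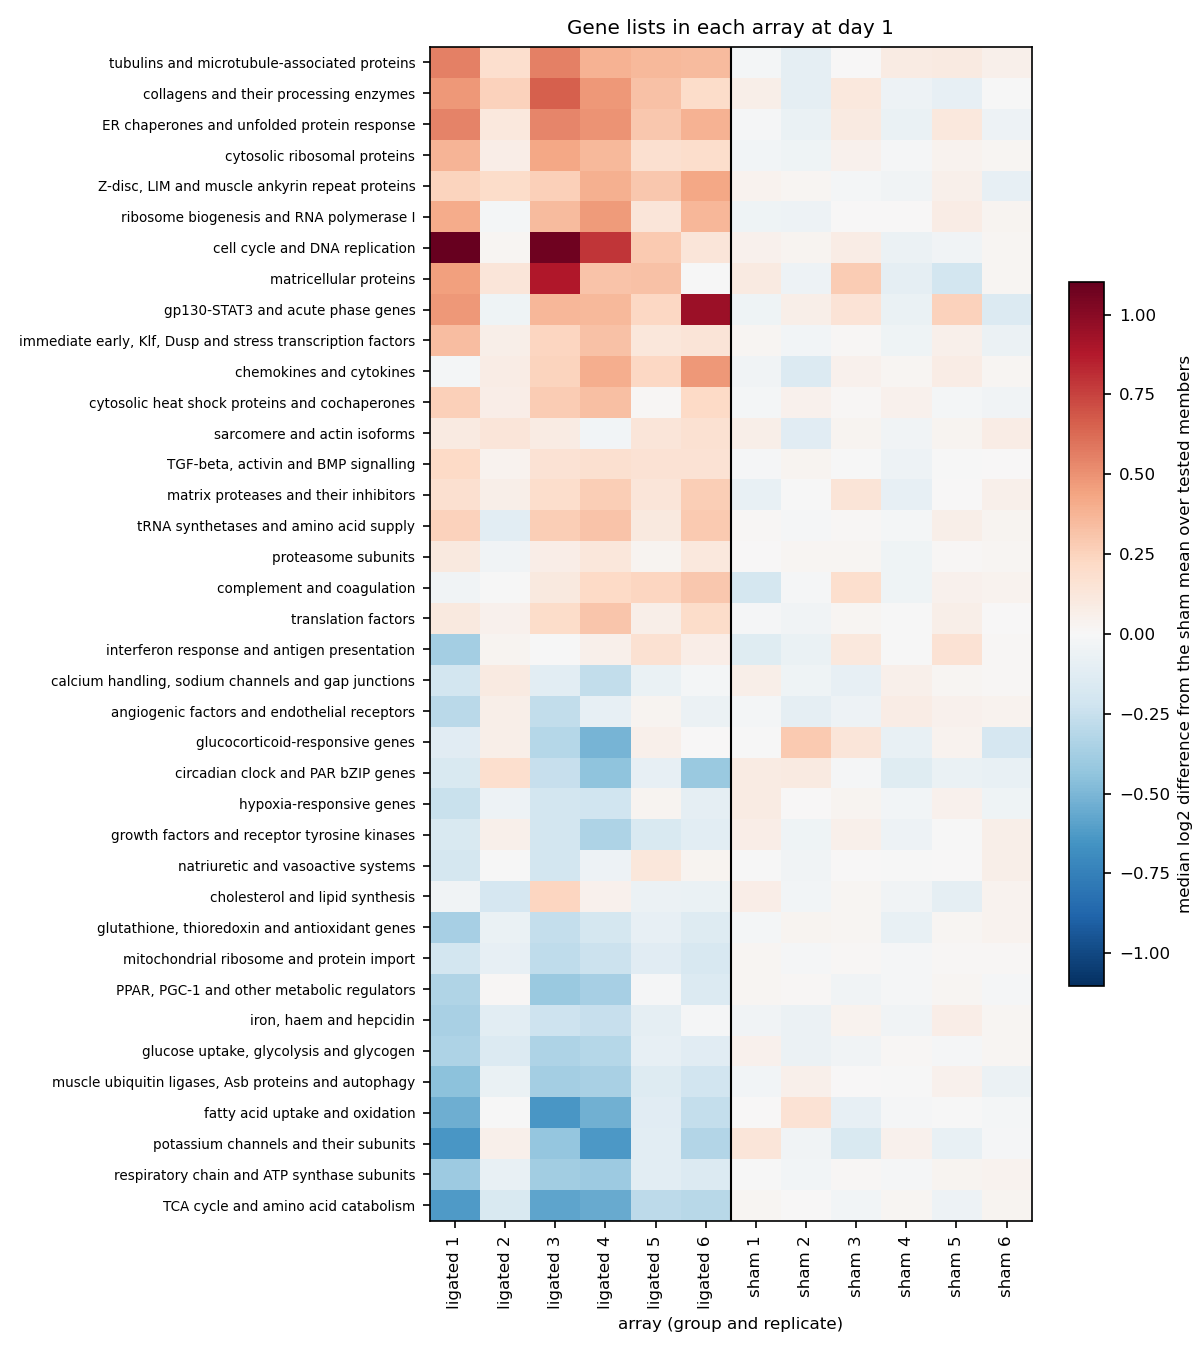
Median, over the tested members of each list shown, of the log2 difference from the sham mean on each ligated (left) and sham (right) array of day 1. The cell cycle list runs from 0.03 in ligated array 2 to 1.10 in ligated array 1, whereas the Z-disc list lies between 0.20 and 0.43 on all 6 ligated arrays.

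The electrical and calcium apparatus is described by list. Of 17 tested potassium channel genes 0 rose and 7 fell (median -0.28), with 0 and 3 under median scaling and 0 and 2 with the brightness covariate. Kcnk2, which encodes TREK-1, a background channel opened by stretch, had 6.55, 7.36 and 8.18 in ligated and 8.77, 9.15 and 9.39 in sham arrays (-1.78 ± 0.23, adjusted p = 0.000451), the groups lying apart. The subunits of the ATP-sensitive channel Abcc8 (-0.69 ± 0.16) and Kcnj11 (-0.74 ± 0.20, adjusted p = 0.0147) fell, while the regulatory subunit Abcc9 was at 0.13 ± 0.18 (adjusted p = 0.623). Of the transient outward current, Kcnip2, the subunit that carries its channels to the membrane, was at -0.79 ± 0.23 (adjusted p = 0.0198) and the pore subunit Kcnd3 at -0.50 ± 0.18 (adjusted p = 0.0491). The inward rectifier Kcnj12 (-0.53 ± 0.17, adjusted p = 0.0299) and the delayed rectifier Kcna5 (-0.55 ± 0.19, adjusted p = 0.0415) fell, and the remaining 10 did not pass, among them Kcnj2 (-0.28 ± 0.16) and Kcnh2 (-0.39 ± 0.20, adjusted p = 0.156, and 0.0346 without sham array 5). The weaker calls depended on single arrays. That of Kcnj12 was lost without ligated array 1 or 4 or sham array 1, 3 or 6 (adjusted p up to 0.0699), that of Kcna5 without any array other than ligated arrays 2 and 6 and sham array 4 (up to 0.0931), and that of Kcnd3 without any array other than ligated arrays 2 and 5 and sham array 3 (up to 0.108). By setting, calls of potassium channel genes were lost under median scaling for Kcnip2, Kcnj12, Kcna5 and Kcnd3, with array brightness as a covariate for Kcnj11, Kcnip2, Kcnj12, Kcna5 and Kcnd3, without the detection filter for Kcnip2, Kcnj12, Kcna5 and Kcnd3, with a replicate block for Kcna5, on the series matrix values for Kcnd3, without background correction for Kcna5 and Kcnd3, and with all 35 arrays normalised together for Kcnd3.

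The list of calcium handling, sodium channels and gap junctions had 6 rises and 6 falls among 42 tested genes, 14.3% each, which is near the background of 12.9% and 16.2% (median -0.15), and 7 and 1 under median scaling (median 0.06). Scn3b, a beta subunit of voltage-gated sodium channels, had 9.26, 9.55 and 10.30 in ligated and 6.57, 7.20 and 7.48 in sham arrays, a 6.21-fold rise (2.63 ± 0.22, adjusted p = 4.01e-05), with every ligated array, array 2 included, more than 1 log2 unit above the highest sham array. Cacnb3, a beta subunit of calcium channels, rose by 0.64 ± 0.12 and Orai1, the pore of store-operated calcium entry, by 0.53 ± 0.12, while its sensor Stim1 fell by 0.44 (SE 0.107, adjusted p = 0.00954). Hrc, which binds calcium inside the sarcoplasmic reticulum, had 10.09, 10.97 and 11.95 in ligated and 12.20, 12.37 and 12.47 in sham arrays and fell by 1.40 (SE 0.298, adjusted p = 0.00493). Array 2 was the highest ligated array for Hrc and still below every sham array. The call of Stim1 was lost under median scaling and with the brightness covariate.

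Energy metabolism held the largest share of falls. Of 48 tested genes of the TCA cycle and amino acid breakdown 32 fell and 0 rose (median -0.44), and of 61 respiratory chain and ATP synthase subunits 26 fell and 0 rose (median -0.28). In the fatty acid list 1 of 55 tested genes rose and 21 fell (median -0.37). These counts depended on the scaling. Under median scaling the numbers that rose and fell were 1 and 9 for the TCA list, 0 and 3 for the respiratory chain and 1 and 6 for the fatty acid list. The list medians were then -0.21, -0.07 and -0.13, all below the all-gene median of 0.20. With the brightness covariate the falls numbered 18, 11 and 10 in the same order. The ventricular muscle markers had a median of -0.12, with 1 rise and 2 falls among 18. Their summed level lay between 437268 and 504095 intensity units in ligated and between 472190.0 and 494622 in sham arrays. The marker list includes Nppb and Nppa, and Nppa (1.39 ± 0.39) was its 1 rise, so the summed level also holds the change of Nppa. The part of a lower share of muscle RNA in these falls was not tested.

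Hadh, which oxidises hydroxyacyl-CoA in fatty acid breakdown, had 11.46, 11.89 and 12.63 in ligated and 12.67, 12.84 and 13.07 in sham arrays (-0.89 ± 0.19, adjusted p = 0.00512), the highest ligated array lying just below the lowest sham array. Acadsb, an acyl-CoA dehydrogenase, was detected on 3 of 6 arrays after ligation and 6 of 6 after sham and fell by 1.02 (SE 0.2), the carnitine transporter Slc22a5 by 0.69 (SE 0.146) and the peroxisomal thiolase Acaa1a by 0.58 (SE 0.123). The rise in this list was Plin2, a coat protein of lipid droplets, with 10.67, 11.75 and 12.13 in ligated and 10.14, 10.43 and 10.54 in sham arrays (1.17 ± 0.20, adjusted p = 0.00194). Ak4, a mitochondrial adenylate kinase, was at -0.86 ± 0.11 (adjusted p = 0.000515), and Mccc1, which breaks down leucine, at -0.74 ± 0.13. Of the respiratory chain, the complex I subunits Ndufs3 (-0.54 ± 0.11) and Ndufs8 (-0.57 ± 0.13), the complex II subunit Sdhd (-0.49 ± 0.11) and the cytochrome oxidase assembly factor Cox15 (-0.44 ± 0.10) fell with no overlap between the groups.

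Regulators of metabolism had 5 rises and 17 falls among 47 tested genes (median -0.17), and 8 and 6 under median scaling (median 0.08). Lpin1, a phosphatidate phosphatase and coactivator of fat oxidation genes, had 6.20, 6.81 and 7.34 in ligated and 7.88, 8.07 and 8.30 in sham arrays (-1.31 ± 0.15, adjusted p = 0.000341). Pdp2, the phosphatase that activates pyruvate dehydrogenase, was at -0.93 ± 0.14, the mitochondrial deacetylase Sirt3 at -0.96 ± 0.18 and the retinoid receptor Rxrg at -0.93 ± 0.19, each with all ligated arrays below all sham arrays. Pdk4, the kinase that opposes Pdp2, was at 0.76 ± 0.35 (adjusted p = 0.117). Within the PGC-1 family of mitochondrial coactivators, Ppargc1b rose by 0.84 ± 0.12 (adjusted p = 0.000892) and Pprc1 by 0.77 ± 0.15, whereas Ppargc1a was at -0.16 ± 0.28 (adjusted p = 0.688) and at 0.09 under median scaling. Angptl4, a secreted inhibitor of lipoprotein lipase, was detected on 6 of 6 arrays after ligation and 0 of 6 after sham. It was at least 2.99-fold higher in ligated arrays (adjusted p = 0.00121).

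Glucose uptake, glycolysis and glycogen genes had 4 rises and 15 falls among 41 tested (median -0.25), and 10 and 6 under median scaling. Slc2a4, the insulin-regulated glucose transporter GLUT4, had 9.61, 10.39 and 10.99 in ligated and 11.21, 11.56 and 11.83 in sham arrays (-1.18 ± 0.20, adjusted p = 0.00158). Phkg1, the catalytic subunit of the kinase that starts glycogen breakdown, was detected on 0 of 6 arrays after ligation and 6 of 6 after sham and was at least 1.73-fold lower in ligated arrays (adjusted p = 0.00055). Its regulatory subunit Phka1 (-0.97 ± 0.14), the glycogen phosphorylase Pygm (-0.58 ± 0.13) and the muscle enzyme Pgam2 (-0.80 ± 0.17) fell. Slc16a3, the lactate exporter MCT4, went the other way, with 7.23, 8.48 and 9.08 in ligated and 6.36, 6.71 and 6.93 in sham arrays (1.75 ± 0.25, adjusted p = 0.000843).

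Mitochondrial ribosome and import genes had 1 rise and 20 falls among 76 tested (median -0.17, and 0.06 under median scaling, where 2 rose and 4 fell). Mrpl3 (-0.62 ± 0.09), Mrpl16 (-0.68 ± 0.12) and the import receptor Tomm22 (-0.92 ± 0.18) were among those that fell. In the list of iron, haem and hepcidin 2 of 30 tested genes rose and 10 fell (median -0.16), and 6 and 2 under median scaling (median 0.05). Bola3, which passes iron-sulfur clusters to mitochondrial enzymes, had 9.62, 10.17 and 10.93 in ligated and 11.32, 11.81 and 11.89 in sham arrays (-1.50 ± 0.20, adjusted p = 0.000582). The cluster assembly enzymes Nfs1 (-0.53 ± 0.09) and Glrx5 (-0.40 ± 0.09) and the last enzyme of haem synthesis Fech (-0.55 ± 0.13, and -0.92 on its second probe) fell too. Antioxidant genes had 4 rises and 16 falls among 52 (median -0.15), and 8 and 5 under median scaling (median 0.09), with Prdx6, a peroxiredoxin, at -0.46 ± 0.09 and the glutathione transferase Gstm7 at -1.22 ± 0.28. Of the subunits of the superoxide-producing NADPH oxidase, Cyba rose by 0.74 ± 0.17 and Ncf1 was at -0.93 ± 0.21 (adjusted p = 0.00697). Hmox1, haem oxygenase, was at 0.35 ± 0.21 (adjusted p = 0.227).

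Cholesterol and lipid synthesis counted 4 rises and 8 falls among 30 tested genes (median 0.06), and 8 and 4 under median scaling. On quantile-normalised values the share of rises was 13.3%, near the 12.9% of all genes, and that of falls 26.7%, against 16.2%. Gpcpd1, which cleaves glycerophosphocholine, had 8.03, 8.58 and 9.34 in ligated and 9.91, 10.36 and 10.61 in sham arrays (-1.64 ± 0.20, adjusted p = 0.00039). The cholesterol exporter Abcg1 was at -0.72 ± 0.12 and squalene synthase Fdft1 at -0.84 ± 0.19. Dhcr7, which makes cholesterol from its last precursor, was detected on 5 of 6 arrays after ligation and 0 of 6 after sham and was at least 1.35-fold higher in ligated arrays (adjusted p = 0.0113). Across the metabolic genes named here, calls were lost under median scaling for Slc22a5, Acaa1a, Ndufs3, Sdhd, Cox15, Nfs1, Glrx5, Fech and Prdx6, and with array brightness as a covariate for Fech, Fdft1 and Dhcr7.

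Hormones, vascular and growth factors follow. Apln, which encodes the inotropic peptide apelin, had 5.71, 6.06 and 7.18 in ligated and 7.87, 8.13 and 8.53 in sham arrays (-1.94 ± 0.23, adjusted p = 0.000387), with ligated array 2 highest of its group and below every sham array. Its receptor Aplnr was at -0.36 ± 0.22 (adjusted p = 0.222). Gcgr, the glucagon receptor, had 6.34, 7.07 and 7.70 in ligated and 8.17, 8.51 and 8.73 in sham arrays (-1.43 ± 0.21, and -1.50 on its second probe). Ace, the angiotensin-converting enzyme, was detected on 6 of 6 arrays after ligation and 0 of 6 after sham and was at least 1.5-fold higher in ligated arrays (adjusted p = 0.00122), and the adenosine receptor Adora1 was at -0.81 ± 0.17 (adjusted p = 0.00424). Natriuretic and vasoactive genes as a list had 4 rises and 8 falls among 34 tested (median -0.04), and 6 and 4 under median scaling (median 0.19). On quantile-normalised values the shares were 11.8% and 23.5%, against 12.9% and 16.2% of all genes.

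Growth factors and receptor tyrosine kinases had 1 rise and 4 falls among 26 (median -0.21, and 0.03 under median scaling). The share of falls was 15.4%, near the 16.2% of all genes, and that of rises 3.85%, below their 12.9%. The rise was Hbegf, a ligand of the epidermal growth factor receptor that cells shed on stretch, with 6.33, 6.98 and 8.21 in ligated and 5.49, 5.82 and 5.99 in sham arrays (1.28 ± 0.26, adjusted p = 0.00406). Igfbp3, a carrier of insulin-like growth factors, had 7.94, 8.55 and 9.44 in ligated and 9.64, 9.90 and 10.05 in sham arrays (-1.24 ± 0.22, adjusted p = 0.00232). Fgf12, which acts on sodium channels, was at -0.74 ± 0.12 and the signalling inhibitor Spry2 at -0.72 ± 0.16. The vascular endothelial growth factors differed among themselves. Vegfb was at -0.77 ± 0.19 (adjusted p = 0.00941), Vegfc at 0.49 ± 0.13 (adjusted p = 0.0142), and Vegfa at -0.03 ± 0.12 (adjusted p = 0.888) and at 0.23 under median scaling. The chemokine receptor Cxcr4 was at -0.99 ± 0.26 (adjusted p = 0.014). For these factors calls were lost under median scaling for Fgf12, with array brightness as a covariate for Vegfb, Vegfc and Cxcr4, and with a spread shared by all 6 groups for Vegfc. Angiogenic factors as a list had 3 rises and 3 falls among 31, hypoxia-responsive genes 2 and 4 among 22, glucocorticoid-responsive genes 3 and 5 among 26, interferon and antigen presentation genes 4 and 3 among 43 and complement and coagulation genes 3 and 1 among 25. Under median scaling the numbers that rose and fell were 5 and 3 for angiogenic factors, 5 and 0 for hypoxia-responsive, 5 and 1 for glucocorticoid-responsive, 7 and 3 for interferon and 6 and 0 for complement genes. On quantile-normalised values none of these 5 lists had a share of rises or falls more than 5 percentage points above the background of 12.9% and 16.2%.

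Markers of other cell types were read in the same way. Of the macrophage genes, Cd14, a receptor for bacterial lipid, had 7.96, 9.33 and 10.05 in ligated and 7.22, 7.91 and 8.29 in sham arrays (1.42 ± 0.31, adjusted p = 0.00553). Lgals3, a secreted galectin, rose by 1.53 ± 0.39, the Fc receptor Fcgr1a by 1.37 ± 0.31, the adaptor Tyrobp by 1.29 ± 0.30 and Aif1 by 0.82 ± 0.20, and in each the lowest ligated array was array 2. The complement genes C1qa, C1qb and C1qc, also of macrophages, did not pass. Of 14 neutrophil markers on the array 2 could be tested. Il1r2, a decoy receptor of interleukin-1, was detected on 5 of 6 arrays after ligation and 1 of 6 after sham and rose by 0.86 ± 0.25 (adjusted p = 0.0221, and 0.0527 without ligated array 4 and 0.0513 without sham array 6), while S100a8, detected on all 12 arrays, did not pass. The markers S100a9, Mpo, Elane, Camp and Cxcr2 were detected on none of the 12 arrays. Of the T and B cell markers, Cd3d, Cd3e, Cd4, Cd79b and Ms4a1 were detected on none either, whereas Cd3g was detected on 4 ligated and 4 sham arrays, Cd8a on 5 and 4, and Prf1 on all 12. Nkg7, a gene of cytotoxic cells, fell by 1.28 (SE 0.291, adjusted p = 0.00693) and Cd74, the invariant chain of antigen presentation, by 0.90 (SE 0.212). The adipocyte genes Adipoq and Lep and the Schwann cell genes Mbp and Sox10 were detected on none.

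Among the 7 tested nerve and Schwann cell markers 4 rose and 1 fell (median 0.48), and 1 and 0 with the brightness covariate. The lowest of the 7 was at -0.40. The nerve markers Th, Uchl1 and Nefl were detected on none of the arrays. Cnp, a phosphodiesterase of myelinating cells that other cells express too, had 8.65, 8.81 and 9.11 in ligated and 7.92, 8.22 and 8.30 in sham arrays (0.65 ± 0.10, adjusted p = 0.00112). Gap43, a protein of growing axons, rose by 1.03 ± 0.29 and Dbh, the enzyme that makes noradrenaline, by 0.86 ± 0.22. Endothelial markers had 1 rise and 1 fall among 13 (median 0.08), and smooth muscle and pericyte markers 3 and 1 among 9. The endothelial shares, 7.69% each, lie below the 12.9% and 16.2% of all genes. The haemoglobin gene Hbb-b1 was at -0.60 ± 0.14 (adjusted p = 0.00702), and its paralog Hbb did not pass. Calls of the cell type markers in this and the foregoing paragraph were lost with array brightness as a covariate for Il1r2, Tyrobp, Aif1, Lgals3, Gap43 and Dbh, and without the detection filter for Il1r2 and Gap43. Of the other marker lists, 0 rose and 2 fell among 5 tested lymphocyte genes, 0 and 0 among 3 of mast cells and 0 and 1 among 4 of adipocytes. The counts were 0 and 2 among 7 erythroid genes, 3 and 0 among 6 of the atria and conduction system, and 0 and 0 for the 1 mesothelial gene. The shares that fell were 40%, 25% and 28.6% for lymphocyte, adipocyte and erythroid genes, against 16.2% of all genes. The atrial share that rose was 50%, against 12.9%. Nppa was among these rises, and the lowest atrial gene was at -0.91. With the brightness covariate the counts were 0 and 1 for lymphocyte, 0 and 0 for adipocyte, 0 and 1 for erythroid and 0 and 0 for atrial genes. What these markers contribute to the other lists was not tested.

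Several of the largest changes lie outside the lists. Basp1, a membrane protein of growing cell processes, had 8.16, 9.50 and 10.94 in ligated and 6.80, 7.13 and 7.55 in sham arrays (2.42 ± 0.40, adjusted p = 0.00147). Mustn1, a small nuclear protein of muscle and skeleton, had 8.63, 10.55 and 11.45 in ligated and 7.69, 7.82 and 7.999 in sham arrays (2.39 ± 0.45, adjusted p = 0.00267), with the sham arrays close together and ligated array 2 the lowest of its group. Of the falls, Cdnf, a secreted ER-resident neurotrophic factor related to Manf, had 7.41, 7.80 and 8.02 in ligated and 8.80, 9.12 and 9.53 in sham arrays (-1.38 ± 0.15, adjusted p = 0.000247), and ligated array 2 lay below arrays 3, 5 and 6. Tbc1d10c, an inhibitor of calcineurin and Ras signalling, had 6.59, 7.16 and 7.97 in ligated and 8.42, 8.55 and 8.79 in sham arrays (-1.40 ± 0.18, adjusted p = 0.00055). Galnt13, which starts O-linked sugar chains, was at -1.37 ± 0.17, the adhesion protein Opcml at -1.38 ± 0.36 and Rev3l, the catalytic subunit of a DNA repair polymerase, at -1.33 ± 0.27. Fam81a (-1.55 ± 0.25, detected on 2 of 6 arrays after ligation and 6 of 6 after sham) and C1h19orf81 (-1.36 ± 0.34, adjusted p = 0.0105) complete the 15 largest falls. With array brightness as a covariate the call of C1h19orf81 was lost.

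The ligation effect at day 1 was compared with that at days 6 and 42 in 1 fit over all 35 arrays, as a difference of the effects. Each day lies on BeadChips of its own, so that day and BeadChip cannot be told apart. Against day 6 the effect was higher at day 1 for 25 genes (0.402%) and lower for 18 (0.289%). Against day 42 it was higher for 288 genes (4.63%) and lower for 297 (4.78%). On the series matrix values 17 genes differed between days 1 and 6, and under median scaling 3498 differed between days 1 and 42. For 10 genes the day 1 effect was above both later effects (0.161%) and for 4 it was below both (0.0643%).

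Of the 10, Cysltr1, a leukotriene receptor, was detected on 6 of 6 arrays after ligation and 0 of 6 after sham and was at least 2.19-fold higher in ligated arrays at day 1 (adjusted p = 0.000451), against effects of 0.22 ± 0.24 at day 6 and 0.65 ± 0.23 at day 42. Plb1, a phospholipase, had 9.50, 10.81 and 11.27 in ligated and 8.48, 8.69 and 8.83 in sham arrays at day 1 (1.92 ± 0.23, adjusted p = 0.000355), and effects of 0.48 ± 0.25 and 0.07 ± 0.24 at days 6 and 42. The keratin Krt24, detected on 5 of 6 arrays after ligation and 0 of 6 after sham, was at least 1.71-fold higher in ligated arrays at day 1 (adjusted p = 0.00389) and had effects of -0.26 ± 0.31 and -0.48 ± 0.29 at the later days. Fbn2, fibrillin-2 of fetal elastic fibres, rose by 1.23 ± 0.21 at day 1, against 0.11 ± 0.20 and 0.02 ± 0.19. Tuba1a rose by 0.88 ± 0.20, against -0.21 ± 0.20 and -0.14 ± 0.19. The differences of Fbn2 and Tuba1a from day 6 lay near the threshold (adjusted p = 0.0429 and 0.0497). Tpsb2, a mast cell tryptase, was at 0.45 ± 0.24 at day 1 (adjusted p = 0.175, and 0.0432 without ligated array 3) and at -1.07 ± 0.26 and -0.66 ± 0.25 later.

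The 4 genes below both later effects were Ttr, Pon3, Tcp11l2 and Pam. Ttr, the thyroid hormone carrier transthyretin, was at -0.43 ± 0.21 at day 1 (adjusted p = 0.137, and 0.00735 without ligated array 6), 0.69 ± 0.19 at day 6 and 0.94 ± 0.18 at day 42. Pon3, a paraoxonase, was at -0.48 ± 0.13 at day 1 (adjusted p = 0.015), 0.94 ± 0.20 at day 6 and 0.43 ± 0.19 at day 42. Tcp11l2 fell by 1.00 (SE 0.128) at day 1 and had effects of -0.22 ± 0.15 and -0.32 ± 0.14 later. Pam, the enzyme that amidates peptide hormones, was at -0.51 ± 0.11 at day 1, 0.16 ± 0.13 at day 6 and 0.20 ± 0.12 at day 42. At day 1 the calls of these genes were lost under median scaling for Pon3 and Pam, and with a spread shared by all 6 groups for Pon3. The differences of Tcp11l2 and Pam from day 6 lay near the threshold (adjusted p = 0.0498 and 0.0485).

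Of the 15 genes with the largest rises at day 1, 9 had a day 1 effect above that of day 42 in this test. Spp1 had effects of 4.64 ± 0.91 at day 6 and -0.10 ± 0.87 at day 42, and Postn of 3.39 ± 0.42 and 0.70 ± 0.40. Mybpc2 had 2.998 ± 0.29 and 0.81 ± 0.27, and Ccl2 2.84 ± 0.57 and -0.07 ± 0.55. Of the 15 largest falls 6 had a day 1 effect below that of day 42 and 1, Gpcpd1, below that of day 6. Apln had -1.71 ± 0.32 at day 6 and -0.77 ± 0.30 at day 42. Hmox1 differed the other way, with an effect of 2.56 ± 0.34 at day 6, and Vegfa with 1.002 ± 0.19 at day 42.

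**Figure D5:**
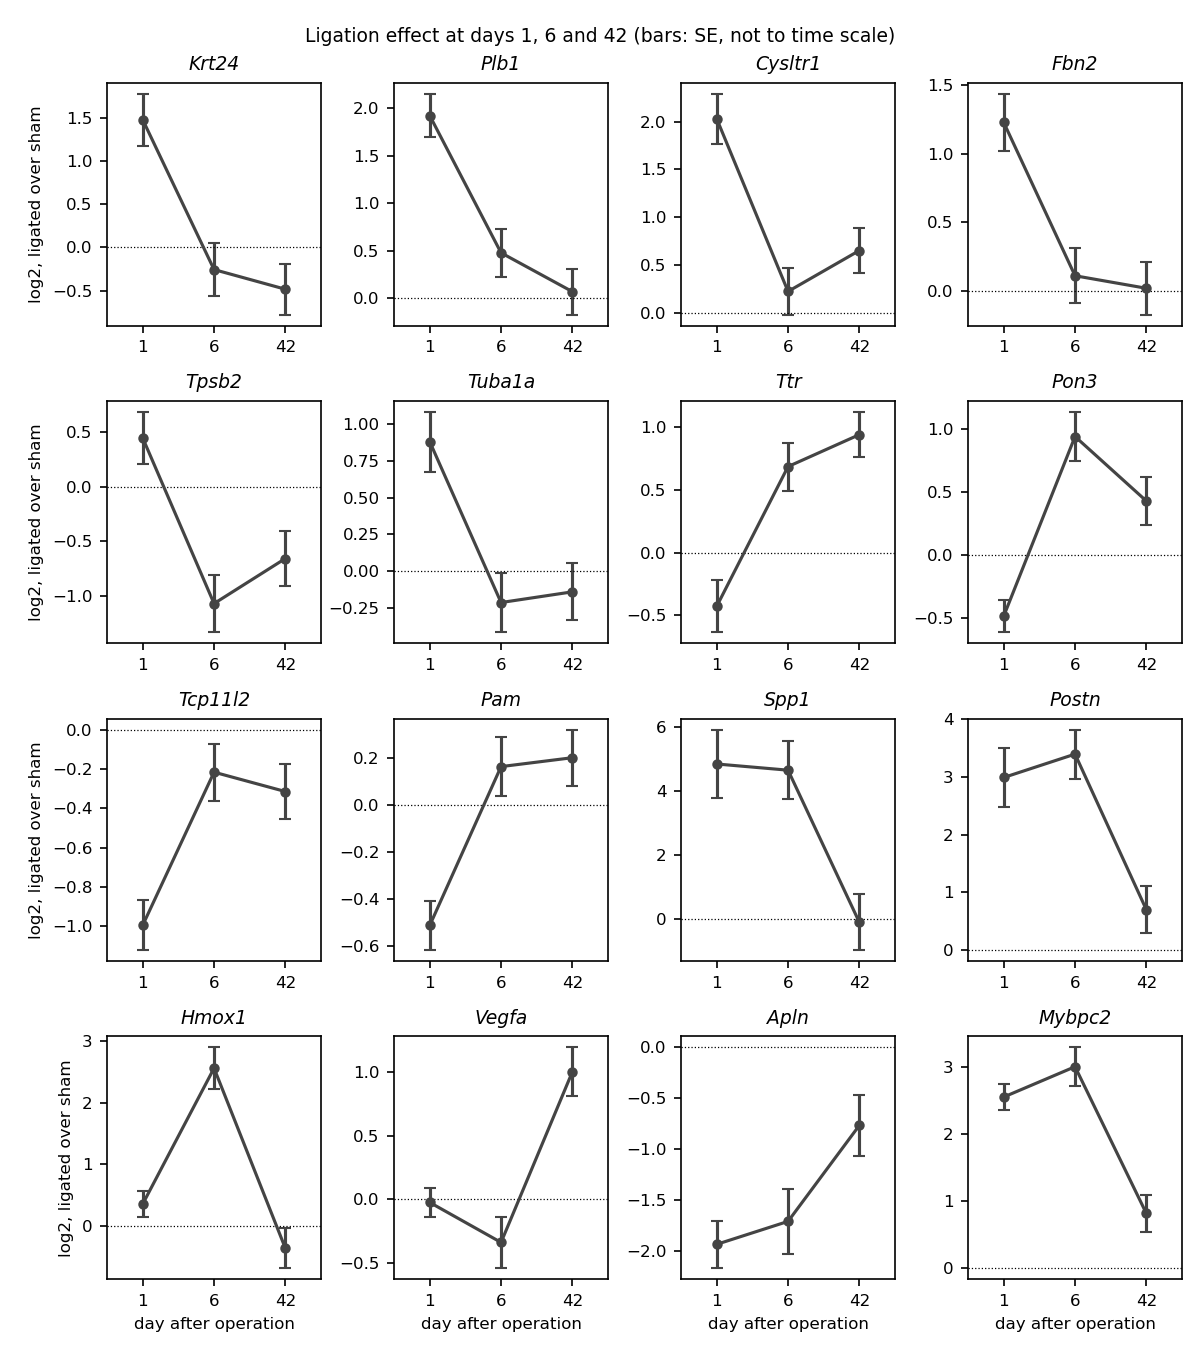
Ligation effect (log2 fold change of ligated over sham ± SE) of 16 genes at days 1, 6 and 42, with the day 1 SE from the fit of its 12 arrays and the others from the fit of all 35. Krt24, Plb1, Cysltr1, Fbn2, Tpsb2 and Tuba1a are highest at day 1, while Spp1, Postn and Mybpc2 are as high or nearly as high at day 6 and lower at day 42.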

How the data were processed

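The day 1 arrays were 6 ligated and 6 sham, grouped by the labels. Nothing says whether the arrays of a group are separate animals, so the p-values measure the spread between these samples, which may be technical. Per the labels, the tissue lay in RNAlater until extraction with the Qiagen RNeasy kit for fibrous tissue, and RNA was amplified with Illumina TotalPrep. Per the submitters' processing notes, BeadStudio 3.3 and GenomeStudio were used. The deposited tables hold, per the file headers, a scanner intensity per probe, a detection p-value against negative control beads and, as an other value, the number of beads (median 30 to 42 per day 1 array). No normalisation or background subtraction shows in the values of this intensity. The deposited series matrix holds intensity after background subtraction and normalisation by the authors, with a method not given in the sources used here. It was floored at 1 and used as an alternative. A further 4 columns, deposited among those of day 6, match no sample and were not used here.

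Intensities were corrected with the normexp model of limma 3.58.1 in R 4.3.3, its background taken from the detection p-values and an offset of 16 added, then quantile-normalised within each day and brought to log2. Probes with a detection p under 0.01 on at least 5 of 12 arrays were tested (lmFit and eBayes, two-sided) with a threshold of 0.05 after Benjamini-Hochberg adjustment. The probe of highest mean intensity stands for a gene with several probes. A gene that no array of a group detected has a lower bound for its fold change, in which each such array takes at least its own lowest detected level. Differences between days came from 1 limma fit of 6 group means over 35 arrays, for the probes tested at day 1. Array measures were compared by exact permutation tests (scipy 1.17.1). On simulated data of 8236 probes the day 1 fit called 94.0% of 100 probes changed by 1 log2 unit, 100.0% of 100 changed by 2, and 0.149% of 8036 unchanged ones. The simulated noise was independent between probes, had the same spread in both groups for each probe and was not normalised. In the data the ligated arrays spread more and a far larger share of probes was called. These shares thus check the fit alone and do not measure power or false calls in the data. Bead arrays give no count depth, and precision is limited by how many arrays there were.

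Gene symbols came from the probe annotation of the platform (13752 of 13793 matched by Entrez ID, none changed), and 1914 of the tested probes have no symbol and were not named. The 39 pathway and 13 marker lists and the comparisons were chosen with earlier results of these data known. The text names the 15 largest called rises and 15 largest called falls, if all arrays of a group detected them, up to 8 members per list by p, a fixed set of cardiac genes, small families and partners in full, and up to 6 genes in each direction that differed from both later days. One pathway list and some of its members, a gene of the 15 largest rises among them, are not reported here. The replicate numbers of the labels did not pair the arrays, since the correlations of the deviations of same-numbered ligated and sham arrays lay between -0.136 and 0.192. As alternatives, background correction was left out, scaling was by the median, and there were joint normalisation of all 35 arrays, the series matrix, other detection filters, eBayes with trend and robust, a spread shared by all 6 groups, weights for arrays, array brightness as a covariate, a replicate block and each array left out in turn. A block for the slide could not be fitted, since all 12 arrays lie on 1 BeadChip.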

Additional observations from a re-analysis of the deposited data

Results flagged for a closer look

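Among 478 groups of 6 arrays checked, 16 held 1 array further from the others than Dixon's 95% limit, where chance gives about 1 in 20. In ligated arrays these were Mt1 in array 2 (log2 intensity 11.9, nearest other 13.1), Asb14 in array 2 (8.67, nearest 8.06), Dusp8 in array 6 (7.52, nearest 8.17), Abcg1 in array 1 (8.37, nearest 8.85) and Spry2 in array 1 (6.92, nearest 7.73). In sham arrays they were Socs2 in array 5 (9.74, nearest 9.58), Lcn2 in array 3 (4.92, nearest 7.37), Loxl2 in array 4 (9.29, nearest 8.91), Atp2a2 in array 2 (15.3, nearest 15.6), Slc1a5 in array 2 (5.33, nearest 6.08) and Asb18 in array 4 (6.82, nearest 7.58). Further sham cases were Kcnip2 in array 4 (12.7, nearest 12.3), Abcg1 in array 3 (9.90, nearest 9.60), Aif1 in array 1 (9.68, nearest 10.2) and Cnp in array 2 (7.92, nearest 8.20). The median number of beads per probe was 30 in sham array 4, against 39 or more in the other sham arrays.

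The effect at day 1 minus that at a later day passed for the following genes. Against day 6 and day 42 the log2 differences were 1.73 and 1.96 for Krt24, 1.45 and 1.86 for Plb1, 1.81 and 1.38 for Cysltr1, 1.12 and 1.21 for Fbn2, 1.52 and 1.10 for Tpsb2, and 1.09 and 1.02 for Tuba1a. They were -1.12 and -1.37 for Ttr, -1.42 and -0.91 for Pon3, -0.78 and -0.68 for Tcp11l2, and -0.68 and -0.71 for Pam. The smallest adjusted p against day 6 among these 10 genes was 0.00526, for Cysltr1, and the largest 0.0498, for Tcp11l2. Against day 42 alone the differences were 4.94 for Spp1, 2.70 for Reg3b, 2.49 for Timp1, 2.29 for Postn, 2.95 for Ccl2, 1.73 for Mybpc2, 2.92 for Angptl4, 2.38 for Basp1 and 2.04 for Mustn1. Below the day 42 effect lay Bola3 at -1.67, Gcgr at -1.32, Hrc at -1.49, Tbc1d10c at -0.97, Galnt13 at -1.01, C1h19orf81 at -1.49 and Vegfa at -1.03. Below the day 6 effect alone lay Gpcpd1 at -1.16 and Hmox1 at -2.21. The days lie on different BeadChips, and their part in these differences cannot be told apart from that of time.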

How the results depend on the processing

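Of the 214 called genes examined singly, 162 kept their direction and call in every alternative run for them, and 36 had no value where detection on every array was required. Calls were lost for 31 of them with array brightness as a covariate, 28 under median scaling, 10 without a detection filter, 8 with a shared spread and at most 3 in the others that keep all arrays. The brightness covariate left 901 genes called (408 higher, 493 lower), and median scaling called 1295 higher and 264 lower and put 32 of 39 lists above balance (more members risen than fallen), against 21. Over the arrays left out in turn, calls numbered 1211 to 2245, with 552 to 1028 higher and 659 to 1217 lower, the lowest without ligated array 4, and lists above balance 20 to 22. The brightness difference was 23.3 to 43.3, the latter with an exact permutation p of 0.0433 without ligated array 6, and that of the share detected 1.51 to 2.74 percentage points. Differences from day 6 numbered 43, and 17 on series matrix values, and those from day 42 585, and 3498 under median scaling. With a replicate block 1604 genes were called (739 higher, 865 lower). The numbers do not pair the arrays, as 2 of 6 ligated arrays correlated best with the sham array of their own number. Direction turned, for genes that did not pass, for Col3a1 (0.13 with array weights, 0.17 under median scaling, and -0.187 without ligated array 4 to 0.147 without sham array 4), Myh6 (0.0395 with the covariate and 0.0396 under median scaling), Atp2a2 (-0.0456 on series matrix values), Ppargc1a (0.0852 under median scaling, and -0.324 without ligated array 2 to 0.0588 without ligated array 6) and Vegfa (0.0170 with the covariate, 0.23 under median scaling, and -0.110 without ligated array 2 to 0.0303 without ligated array 3). The causes were not tested. Bead arrays limit values near background and near the scanner's upper end.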

Other observations

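In 40 genes that rose no sham array detected the probe, and in 5 that fell no ligated array did. Of the 636 genes whose groups did not overlap, 12 did not pass the test. When ligated array 2 was held out and the other 5 ligated arrays chose the genes, it had a median log2 difference from the sham mean of -0.42 over the 114 genes lower in ligated. The sham arrays served both for the choice and for the difference. The same value was -1.47, -1.32 and -1.60 for ligated arrays 1, 3 and 4, and -0.78 and -0.79 for arrays 5 and 6.

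Other motifs were searched on both strands in the promoters of lists of transcription factors and clock genes. The cyclic AMP response element TGACGTCA was present in 2 of 37 promoters of tested immediate early and stress genes, against 3.40% of the promoters of tested genes. The E-box CACGTG was present in 2 of 9 promoters of tested clock genes, against 9.56%, and the D-box TTATGTAA in 1 of 9, against 0.442%. In none of these 3 searches did a match lie in the promoter of a gene that rose. Such genes supplied 12 of the 37 promoters and 2 of the 9, too few to draw a conclusion from the absence. These are descriptions of the letters in these windows.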
